A study of Mus musculus with 6 samples.

Results

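The PI3K, AKT and mTOR signalling core was examined at the mRNA level in NCU10K cells, a mouse neural crest cell (NCC) line, after knockdown of Nedd4. A fixed list of 43 genes was taken, made up of lipid kinase subunits, docking adaptors, kinases of the AKT and mTOR branches, their antagonists and the targets that AKT holds back. A gene was counted as measured when a probeset named it alone, and the probeset with the highest mean over the arrays then stood for it. By this rule 42 of the 43 genes were measured, among 19933 genes in all, and Rps6kb1 was not analysed here. Of the 42 genes, 24 encode positive regulators, 13 negative regulators and 5 proteins that AKT inhibits.

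Cells of the NCU10K line were transfected with Nedd4 siRNA or with a low GC control siRNA, and total RNA was collected 48 h later. Each siRNA has 3 samples, described as biological replicates. Each replicate was hybridised to 1 Affymetrix Mouse Gene 1.0 ST array, which gives 3 Nedd4 siRNA and 3 control siRNA arrays. Both groups share the line, its medium with foetal calf serum and the transfection reagent. A single Nedd4 siRNA was used and no rescue was placed on the arrays, so loss of Nedd4 and other effects of that siRNA cannot be told apart. The methods take the RNA from a well of a multiwell plate and the design notes from larger dishes, which was not reconciled here. Deposited values are log2 signals, on which a difference of 1 is a doubling of signal. All differences below are Nedd4 siRNA minus control siRNA, fitted with limma over all 28440 probesets, and a gene passed the test when its Benjamini-Hochberg adjusted p was under 0.05.

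Nedd4 itself, the ubiquitin ligase gene targeted by the siRNA, had log2 signals of 10.45, 10.94 and 10.68 on the Nedd4 siRNA arrays against 12.24, 12.35 and 12.34 on the control siRNA arrays, a difference of −1.62 (adjusted p = 3.16e-06). Array medians lay between 6.28 and 6.35, and correlations between arrays were at least 0.994 within a group and between 0.987 and 0.991 across groups. Probesets of 1027 olfactory receptor genes, taken to stand for genes that are mostly silent outside the olfactory epithelium, gave a 95th percentile of mean signal of 5.95, and probesets below it are called dim here. Of the neural crest and glial marker list 12 of 14 genes were measured and 3 of them were dim. Its summed level was lower on the Nedd4 siRNA arrays, at 13.39 to 13.52 against 13.77 to 13.81 on the control siRNA arrays on the log2 scale. In that list 5 genes fell, among them Erbb3, Foxd3 and Tfap2a, and 1 rose, Twist1 (adjusted p = 0.0419). Twist1 was not called in 10 of 18 alternatives, among them the replicate block, the methods' t-test (an ANOVA in place of limma's moderated test) and leaving out any array other than control siRNA replicate 2 (adjusted p between 0.0621 and 0.148). The white blood cell list (13 measured, 11 dim) ranged from 9.15 to 9.24 on the Nedd4 siRNA arrays against 9.21 to 9.30 on the control siRNA arrays. Its count of genes past the test was 0 with limma, and 0 also at an unadjusted p under 0.05 and by the methods' t-test. All 7 endothelial markers were dim. In the smooth muscle and fibroblast list 3 of 12 genes rose, Pdgfra, Dcn and Des, and 5 of the 12 were dim. Differences were above 0 in 8 of the 12 and below 0 in 4 (median 0.1). The brightest genes of this list, Col1a2 (mean signal 8.84) and Acta2 (8.71), did not pass. Des was not called without Nedd4 siRNA replicate 1, Nedd4 siRNA replicate 3 or control siRNA replicate 3 (adjusted p = 0.14, 0.0765 and 0.0727). The summed level was 10.78 to 10.86 on the Nedd4 siRNA arrays against 10.59 to 10.66 on the control siRNA arrays. In the neuronal list 2 of 8 rose, Tubb3 and Map2, and 5 of the 8 were dim. Differences were above 0 in 4 of the 8 and below 0 in 4 (median −0.03). Map2 was not called with the replicate block or by the methods' t-test. It was also lost without Nedd4 siRNA replicate 1 or 3 or control siRNA replicate 1 or 2 (adjusted p between 0.0815 and 0.222). Map2 was the brightest gene of this list (mean signal 9.18), followed by Tubb3 (6.75). The summed level of the list was 9.94 to 10.14 on the Nedd4 siRNA arrays against 9.74 to 9.90 on the control siRNA arrays. Of the epithelial list all 6 genes were measured, 4 of them dim, and none passed the test, also at an unadjusted p under 0.05. All 6 had differences below 0 (median −0.12), and the summed level was 8.45 to 8.54 on the Nedd4 siRNA arrays against 8.55 to 8.71 on the control siRNA arrays. Counts in these marker lists are to be read beside 9.62% higher and 9.13% lower over all genes. The part of these shifts in the results below was not tested, and in bulk RNA fewer cells of a type and less RNA per cell cannot be told apart.

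In this pathway growth factor receptors, directly or through docking adaptors such as IRS and GAB proteins, recruit class I PI3K, a heterodimer of a catalytic and a regulatory subunit. The 3-phosphorylated inositol lipid that it makes at the membrane brings PDK1 and AKT together, and inositol lipid phosphatases take the lipid away. AKT inhibits the TSC complex, the GSK3 kinases and the FOXO transcription factors, and with TSC inhibited RHEB activates mTOR complex 1, defined by RAPTOR. The mTOR complex 2, defined by RICTOR, in turn phosphorylates AKT, while LKB1 and AMPK restrain mTORC1 when energy is low. The pathway is best known for cell survival, growth and migration, and in the neural crest it acts downstream of PDGF receptors.

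Knockdown of Nedd4 was accompanied by altered mRNA of 15 of the 42 measured pathway genes, 12 higher and 3 lower, and 27 did not pass the test. The log2 differences lay between −0.48 and 0.54, leaving aside Prkaa2, which was below the olfactory receptor level on all control siRNA arrays. The genes that rose were Pik3r1, Pik3r3, Pik3c2a, Gab2, Pdpk1, Rheb, Rictor, Phlpp1, Stk11, Prkaa2, Gsk3a and Gsk3b, and those that fell were Akt2, Mtor and Deptor. These 15 genes are 35.7% of the measured members, against 18.7% of all genes (3737 of 19933), where 9.62% were higher and 9.13% lower. Most members gave a bright signal. Of the 37 members with a mean above the olfactory receptor level 15 passed (40.5%), against 31.2% of all genes above it (3595 of 11519). Neither excess is read as a result about the members. At an unadjusted p under 0.05 there were 21 members, against 28.4% of all genes, and by the methods' t-test 9 members after adjustment, against 9.05%. With a log2 difference of at least 0.5 also required, 5 members passed, against 8.88% of all genes, and with the replicate number as a block 16 did, against 20.1%. The split by direction was 28.6% higher and 7.14% lower in the 42 members. Above the olfactory receptor level 12 of 37 members were higher and 3 lower, beside 16.2% and 15.0% of all genes above it. This split was not tested. The median log2 difference of the members was 0.05, beside −0.02 over all genes. The 2 groups of arrays did not overlap in 24 of the 42 members, beside 31.7% of all genes, dim ones included. The share among genes above the olfactory receptor level was not taken, so this is not read as a result about the members either.

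**Figure D1:**
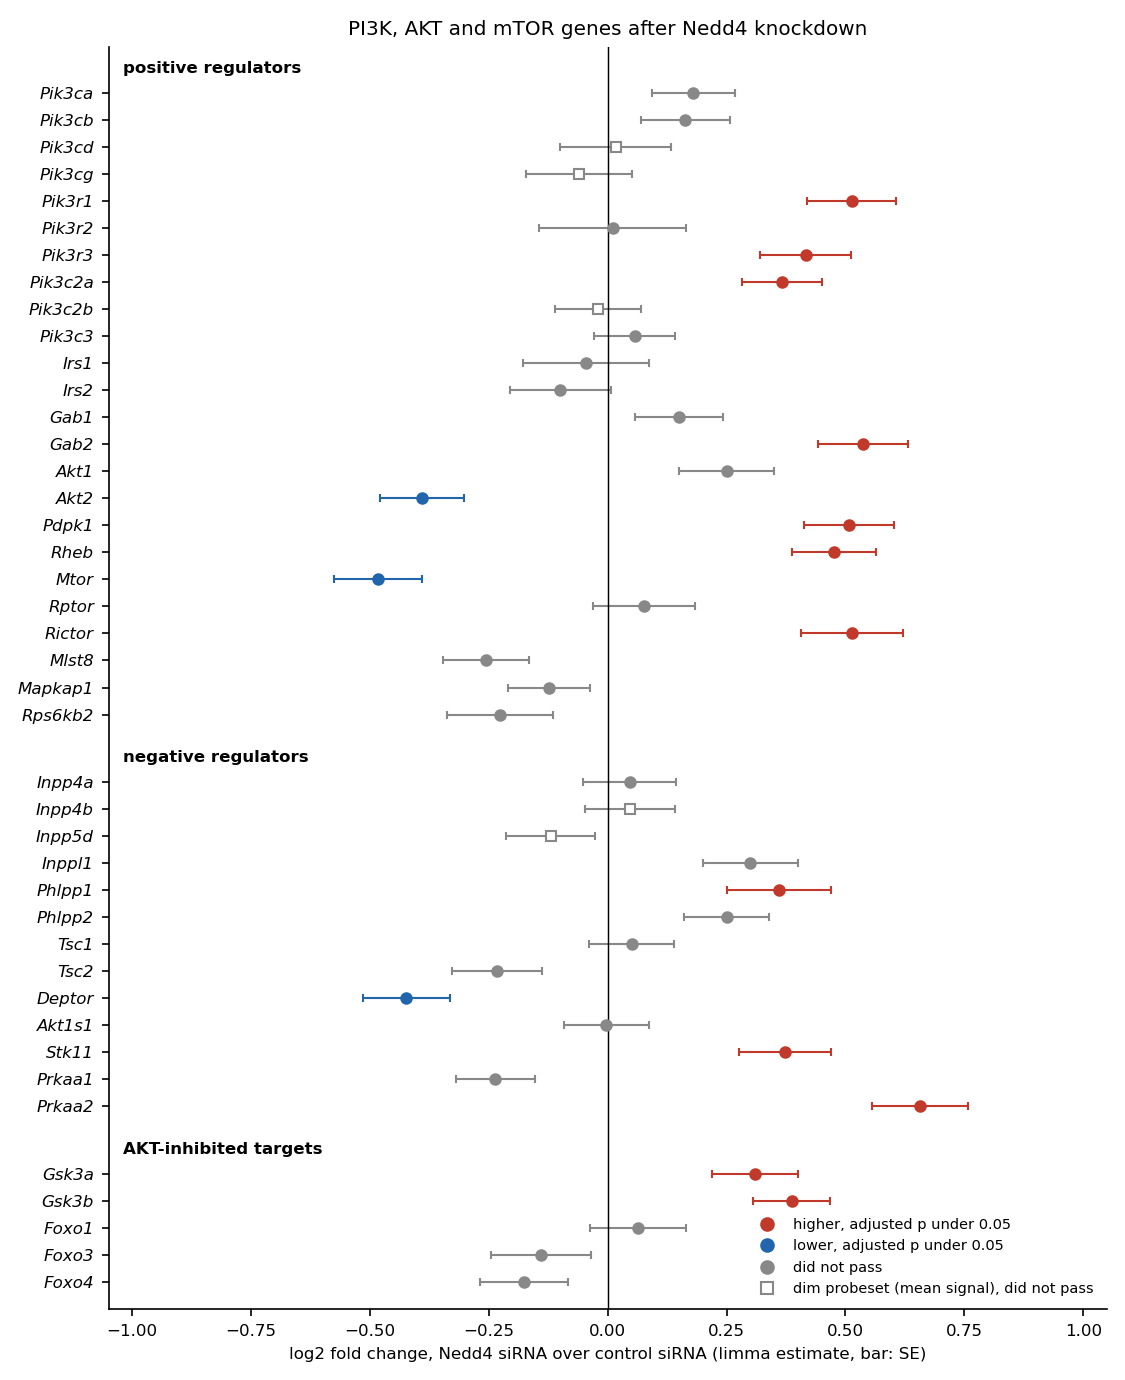
Log2 fold change of each measured pathway gene (Nedd4 siRNA over control siRNA, x axis) with its standard error from limma, by positive regulators, negative regulators and AKT-inhibited targets. The 12 genes that rose (red) lie in all of these groups, the 3 that fell (blue) among positive and negative regulators, and the 5 dim genes (open squares) are among the 27 that did not pass.

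Positive and negative regulators were kept apart, to show whether mRNA of one side moved against that of the other. Regulatory PI3K subunits both stabilise and restrain the catalytic subunit, and were counted as positive here. Among 24 positive regulators 7 rose, 2 of them such subunits (Pik3r1 and Pik3r3), and 2 fell (median log2 difference 0.07). Among 13 negative regulators 3 rose and 1 fell (median 0.05), and among 5 AKT-inhibited targets 2 rose and 0 fell (median 0.06). The 3 medians were close, and genes that rose were present in each group. The difference between the groups was not tested. Without Nedd4 siRNA replicate 1, 9 of the 15 genes still passed the test, 6 positive regulators, 2 negative regulators and 1 target, against 12.1% of all genes.

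**Figure D2:**
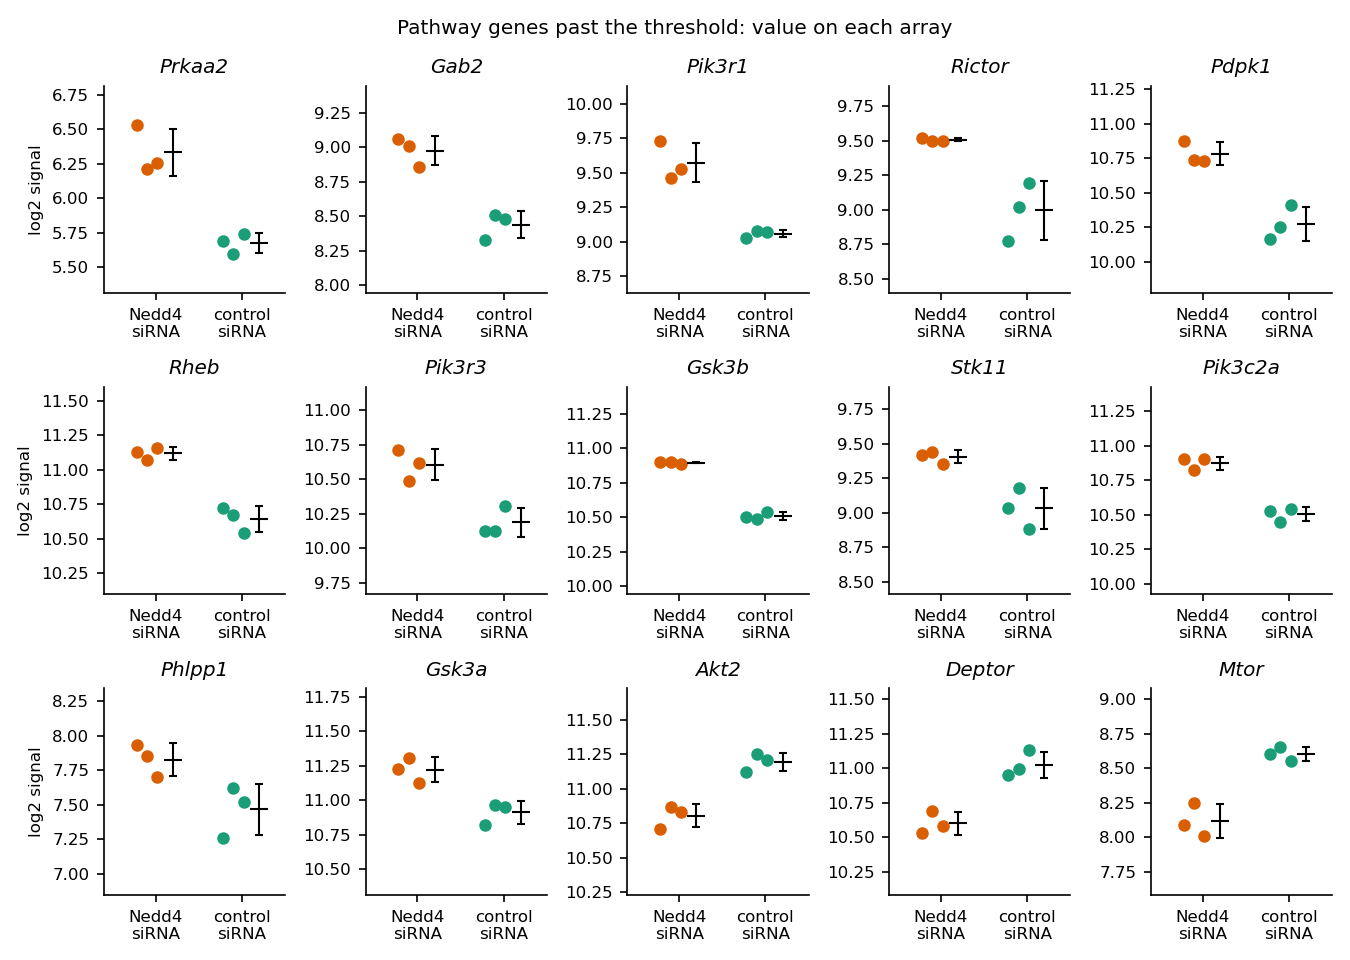
Log2 signal on each array for the 15 pathway genes past the test, with Nedd4 siRNA arrays in orange and control siRNA arrays in green, 3 arrays each, and the mean with its SD as a bar. Each panel spans the same range of log2 signal, and in all 15 panels the 3 arrays of one siRNA lie apart from the 3 of the other.

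In class I PI3K, 2 of the 3 genes for regulatory subunits rose while none of the 4 for catalytic subunits passed the test. Pik3r1 encodes p85α, the main regulatory subunit, which holds and stabilises the catalytic subunit and also restrains it. Its log2 signals were 9.73, 9.46 and 9.53 on the Nedd4 siRNA arrays against 9.03, 9.08 and 9.07 on the control siRNA arrays. The groups lay well apart, and the log2 difference was 0.51 (SE 0.094, adjusted p = 0.00222), a 1.43-fold rise. Pik3r3, which encodes the regulatory subunit p55γ, had values of 10.71, 10.49 and 10.62 on the Nedd4 siRNA arrays against 10.13, 10.13 and 10.31 on the control siRNA arrays. It rose by 0.42 (SE 0.095, adjusted p = 0.00901), but was not called by the methods' t-test (adjusted p = 0.0798) or without Nedd4 siRNA replicate 1 (adjusted p = 0.0664). The third regulatory gene, Pik3r2, had a difference of 0.01 (95% interval −0.33 to 0.35), and control siRNA replicate 3 read 7.97 where the other 2 control arrays read 8.57 and 8.72. The 4 catalytic subunit genes gave 0 calls with limma, 0 at an unadjusted p under 0.05 and 0 by the methods' t-test after adjustment (1 before it). Pik3ca and Pik3cb, for the catalytic subunits p110α and p110β found in most cells, had differences of 0.18 (95% interval −0.01 to 0.37) and 0.16 (−0.04 to 0.37). Pik3cd and Pik3cg, for the subunits known mainly from white blood cells, were dim, with differences of 0.02 and −0.06.

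Of the other lipid kinases Pik3c2a rose. It encodes a class II enzyme that acts in endocytosis, and its log2 signals were 10.90, 10.82 and 10.90 on the Nedd4 siRNA arrays against 10.53, 10.45 and 10.54 on the control siRNA arrays. The spread within each group was small and the difference was 0.37 (SE 0.084, adjusted p = 0.00915). The call was lost without Nedd4 siRNA replicate 1 (0.35, adjusted p = 0.0584). Its paralogue Pik3c2b was dim, with a difference of −0.02. Pik3c3, which encodes the class III kinase VPS34 of endosomes and autophagy, had a difference of 0.06 (95% interval −0.13 to 0.24).

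Among the docking adaptors Gab2 alone passed the test. GAB2 binds p85 once a receptor has phosphorylated it, and its gene had log2 signals of 9.06, 9.01 and 8.86 on the Nedd4 siRNA arrays against 8.33, 8.51 and 8.48 on the control siRNA arrays. The rise of 0.54 (SE 0.094, adjusted p = 0.00161) corresponds to 1.45-fold, and the call stood in all 18 alternatives. Gab1, its close relative, had a difference of 0.15 (95% interval −0.05 to 0.35). Irs1 and Irs2, the adaptors of the insulin and IGF1 receptors, had differences of −0.05 (−0.34 to 0.24) and −0.10 (−0.33 to 0.13). A second probeset of Irs1 gave −0.15 (adjusted p = 0.428).

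Further down, Pdpk1 rose and Akt2 fell, while Akt1 did not pass. Pdpk1 encodes PDK1, which phosphorylates the activation loop of AKT. It had log2 signals of 10.88, 10.74 and 10.73 on the Nedd4 siRNA arrays against 10.17, 10.25 and 10.41 on the control siRNA arrays. The groups were clearly apart, and the difference was 0.51 (SE 0.095, adjusted p = 0.00259), although by the methods' t-test its adjusted p was 0.052. Akt2, which encodes the AKT isoform best known from the insulin response, had values of 10.71, 10.87 and 10.83 on the Nedd4 siRNA arrays against 11.12, 11.25 and 11.21 on the control siRNA arrays. It fell by 0.39 (SE 0.089, adjusted p = 0.00855), and was not called without Nedd4 siRNA replicate 1 (−0.34, adjusted p = 0.0676). Akt1, for the isoform found in most tissues, was higher on each Nedd4 siRNA array, at 11.14, 11.12 and 11.08 against 10.91, 11.01 and 10.67 on the control siRNA arrays, but its difference of 0.25 did not pass (adjusted p = 0.128).

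The Akt2 value carries a limit of the array annotation. In the order of probeset numbers, which mostly follows the chromosomes, 0 of the 10 nearest named neighbours of the probeset used here lie on the chromosome of Akt2, and those next to it are Vstm2a and Egfr. A second Akt2 probeset has 10 of 10 neighbours on that chromosome. It read 9.83, 10.12 and 9.86 on the Nedd4 siRNA arrays against 10.09, 10.25 and 10.36 on the control siRNA arrays. These groups overlapped, and the difference of −0.30 had the same sign but did not pass the test (adjusted p = 0.0864). Whether the probeset with the higher signal reads Akt2 alone was not tested.

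At mTOR itself the kinase gene fell while those for its activator RHEB and for RICTOR rose. Mtor had log2 signals of 8.09, 8.25 and 8.01 on the Nedd4 siRNA arrays against 8.60, 8.65 and 8.55 on the control siRNA arrays. The control arrays were tightly grouped above all Nedd4 siRNA arrays, and the gene fell by 0.48 (SE 0.092, adjusted p = 0.00291), a 1.40-fold decrease. Rheb, for the small GTPase that activates mTORC1, had values of 11.13, 11.07 and 11.16 on the Nedd4 siRNA arrays against 10.72, 10.67 and 10.54 on the control siRNA arrays. It rose by 0.48 (SE 0.088, adjusted p = 0.0024). Rictor, for the defining subunit of mTORC2, had values of 9.52, 9.50 and 9.50 on the Nedd4 siRNA arrays against 8.77, 9.02 and 9.19 on the control siRNA arrays. The Nedd4 siRNA arrays were nearly identical and the control arrays spread widely. The rise was 0.51 (SE 0.107, adjusted p = 0.00517), with an adjusted p of 0.102 by the methods' t-test.

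The other subunits of the mTOR complexes did not pass. Mlst8, which encodes a subunit shared by mTORC1 and mTORC2, was lower on each Nedd4 siRNA array, at 8.45, 8.43 and 8.32 against 8.55, 8.74 and 8.68 on the control siRNA arrays. Its difference was −0.26 (adjusted p = 0.0788), and it passed after quantile normalisation (adjusted p = 0.0324). Rptor, for RAPTOR, had a difference of 0.08 (95% interval −0.16 to 0.31), and Mapkap1, for the mTORC2 subunit SIN1, one of −0.12 (−0.31 to 0.07). Rps6kb2, for an S6 kinase downstream of mTORC1, had a difference of −0.23 (−0.47 to 0.02). Deptor encodes a protein that binds mTOR and inhibits it, and it fell together with Mtor. Its log2 signals were 10.53, 10.69 and 10.58 on the Nedd4 siRNA arrays against 10.95, 10.99 and 11.13 on the control siRNA arrays. The difference was −0.42 (SE 0.091, adjusted p = 0.00625), and by the methods' t-test its adjusted p was 0.0531. Akt1s1, for the mTORC1 inhibitor PRAS40, had a difference of −0.00 (95% interval −0.20 to 0.19).

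Promoter sequence was set beside these genes because Mtor fell while Rheb, Rictor and Pik3r1 rose. RefSeq promoter windows (mouse build GRCm38.p6), which run from 250 bases before to 50 bases after a transcription start, were found for 38 of the 43 listed genes, with 54 windows in all. Both strands were searched for the GC box as GGGCGG, and for the CCAAT box by the letters of its name. The E-box was searched as CACGTG. The letters used for the FOXO element were TGTTTAC. Of the 54 windows 68.5% held a GC box, against 35.7% of all 32851 windows. The CCAAT box occurred in 33.3% of member windows against 37.4% of all, the E-box in 5.56% against 7.15%, and the FOXO element in 9.26% against 3.65%. By gene, 30 of the 38 had a GC box, 12 of them among the 13 genes with a window that passed the test. A CCAAT box was found at 18 of the 38, 10 of them among those 13. Those 10 include genes that rose, such as Gsk3b and Rictor, and genes that fell, Akt2 and Mtor. An E-box was found at Rheb, Irs1 and Irs2, and a FOXO element at Akt1, Mapkap1, Pik3cg and Stk11. Shares by gene were not taken over all genes, nor any share among genes above the olfactory receptor level. Neither the shares of windows nor the counts by gene are therefore read as a result about the members. The windows of Rheb, Pik3r1, Rictor and Mtor are each read along the strand of the gene, with the matches to these motifs on either strand in capitals.

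Rheb promoter window, chr5:24842312-24842611, strand −: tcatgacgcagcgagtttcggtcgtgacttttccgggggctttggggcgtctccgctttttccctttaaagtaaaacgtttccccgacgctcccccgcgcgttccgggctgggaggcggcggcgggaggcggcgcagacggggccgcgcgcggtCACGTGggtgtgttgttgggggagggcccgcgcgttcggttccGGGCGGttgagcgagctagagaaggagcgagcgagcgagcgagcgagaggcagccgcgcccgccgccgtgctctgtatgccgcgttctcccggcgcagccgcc
Pik3r1 promoter window, chr13:101768168-101768467, strand −: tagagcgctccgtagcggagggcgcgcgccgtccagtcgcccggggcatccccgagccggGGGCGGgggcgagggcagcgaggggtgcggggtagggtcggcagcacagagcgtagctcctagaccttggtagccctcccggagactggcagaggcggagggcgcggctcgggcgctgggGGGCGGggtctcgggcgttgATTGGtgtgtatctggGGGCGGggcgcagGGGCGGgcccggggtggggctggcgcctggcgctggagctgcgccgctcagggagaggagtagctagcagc
Rictor promoter window, chr15:6708131-6708430, strand +: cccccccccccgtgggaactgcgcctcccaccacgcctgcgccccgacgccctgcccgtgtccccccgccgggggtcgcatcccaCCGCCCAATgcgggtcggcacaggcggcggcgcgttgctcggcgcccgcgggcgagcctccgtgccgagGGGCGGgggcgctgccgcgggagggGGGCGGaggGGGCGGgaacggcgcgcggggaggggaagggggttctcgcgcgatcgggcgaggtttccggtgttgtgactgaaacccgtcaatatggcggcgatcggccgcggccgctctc
Mtor promoter window, chr4:148448332-148448631, strand +: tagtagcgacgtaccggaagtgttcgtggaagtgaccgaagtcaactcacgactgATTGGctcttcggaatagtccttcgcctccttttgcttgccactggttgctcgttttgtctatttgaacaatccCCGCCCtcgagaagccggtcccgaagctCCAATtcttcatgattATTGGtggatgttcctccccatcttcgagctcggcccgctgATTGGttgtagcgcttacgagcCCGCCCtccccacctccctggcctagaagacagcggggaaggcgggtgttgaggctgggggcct

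The Mtor window held 4 CCAAT boxes and 2 GC boxes and was 56.7% G and C. Those of Rictor and Pik3r1 each held 4 GC boxes and 1 CCAAT box, at 78.3% and 75.7% G and C, and in Rictor a GC box and the CCAAT box overlap. The window of Pik3r1 is 1 of 2 for that gene. The Rheb window (70.0% G and C) held 1 GC box and 1 E-box. Among the windows shown only that of Mtor belongs to a gene that fell, so no contrast between falling and rising genes is drawn from them. These are matches of letters in a fixed window, and binding at them was not measured.

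Of the negative regulators, 2 of the 3 LKB1 and AMPK genes rose. Prkaa2, which encodes the α2 catalytic subunit of AMPK, had log2 signals of 6.53, 6.21 and 6.26 on the Nedd4 siRNA arrays against 5.69, 5.60 and 5.74 on the control siRNA arrays. All 3 control arrays lay below the olfactory receptor level of 5.95 and all 3 Nedd4 siRNA arrays above it. The means were 6.33 with Nedd4 siRNA and 5.68 with control siRNA, and the difference was 0.66 (SE 0.102, adjusted p = 0.000713). Taken against that level in place of the control signal, the gene was at least 1.30-fold higher with Nedd4 siRNA. Prkaa1, for the α1 subunit, had the opposite sign, with a difference of −0.24 (95% interval −0.42 to −0.06) that did not pass (adjusted p = 0.0796). Prkaa1 passed in 4 alternatives, among them the methods' t-test (adjusted p = 0.0386). Stk11, for the kinase LKB1 that activates AMPK, rose by 0.37 (adjusted p = 0.018). Its call was lost by the methods' t-test. It was also lost without Nedd4 siRNA replicate 1 (adjusted p = 0.0814), without Nedd4 siRNA replicate 2 (0.0553) and without control siRNA replicate 3 (0.0704).

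Phlpp1, for a phosphatase that removes an activating phosphate from AKT, rose by 0.36 (adjusted p = 0.0407), the largest adjusted p among the 15. The call was lost by the methods' t-test and by a trended and robust form of the limma test. It was also lost on leaving out Nedd4 siRNA replicate 1 (adjusted p = 0.188), Nedd4 siRNA replicate 2 (0.0966), control siRNA replicate 1 (0.143) or control siRNA replicate 3 (0.0731). Phlpp2, its paralogue, had values of 8.51, 8.53 and 8.59 on the Nedd4 siRNA arrays against 8.30, 8.39 and 8.19 on the control siRNA arrays. The groups were apart, but the difference of 0.25 did not pass (adjusted p = 0.0819). The inositol lipid phosphatases gave 0 calls with limma and 0 by the methods' t-test, and 1 gene, Inppl1, with an unadjusted p under 0.05. Inppl1, which encodes SHIP2, had values of 10.55, 10.53 and 10.48 on the Nedd4 siRNA arrays against 10.29, 10.35 and 10.02 on the control siRNA arrays. Its difference was 0.30 (adjusted p = 0.0649), and it passed in 7 alternatives, such as array weights (adjusted p = 0.0202). Inpp4a, Inpp4b and Inpp5d, of which the last 2 were dim, had differences of 0.05, 0.05 and −0.12. Tsc1 and Tsc2, whose products together inactivate RHEB, also gave 0 calls with limma and by the methods' t-test, and 1 gene at an unadjusted p under 0.05. Tsc1 had a difference of 0.05 (95% interval −0.15 to 0.25) and Tsc2 one of −0.23 (−0.44 to −0.03, adjusted p = 0.134).

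Of the proteins that AKT inhibits, the GSK3 genes rose and the FOXO genes did not pass. Gsk3b encodes a kinase that acts on glycogen synthase and β-catenin, and had log2 signals of 10.90, 10.90 and 10.89 on the Nedd4 siRNA arrays against 10.50, 10.49 and 10.54 on the control siRNA arrays. Replicates agreed closely, and the rise was 0.39 (SE 0.082, adjusted p = 0.00557). Gsk3a, its paralogue, rose by 0.31 (adjusted p = 0.0345). The call of Gsk3a was lost by the methods' t-test. It was also lost on leaving out Nedd4 siRNA replicate 1 (adjusted p = 0.13), Nedd4 siRNA replicate 2 (0.124), control siRNA replicate 1 (0.107) or control siRNA replicate 3 (0.059). Foxo1, Foxo3 and Foxo4, for transcription factors that AKT keeps out of the nucleus, had differences of 0.06 (95% interval −0.16 to 0.28), −0.14 (−0.37 to 0.09) and −0.18 (−0.38 to 0.02). None of the 3 passed with limma or the methods' t-test, also at an unadjusted p under 0.05, where each count was 0.

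To see whether the balance between related genes shifted, the difference of their log2 signals was taken on each array, which removes any scaling of the array as a whole. Levels of such a difference depend on the probes, so only its change between the siRNAs is given. Of 17 listed pairs 16 were measured, and in 7 the groups did not overlap. The share over other pairs of genes was not taken, so this count is not read as a result about the listed pairs. Each of these 7 had p = 0.1 in a two-sided exact permutation test, the smallest that 3 arrays against 3 allow, and an adjusted p of 0.229 over the 16 pairs. In 4 of the 7 both genes were above the olfactory receptor level. Akt2 minus Akt1 was −0.43, −0.25 and −0.25 on the Nedd4 siRNA arrays against 0.21, 0.24 and 0.54 on the control siRNA arrays, a change of −0.64. With the other Akt2 probeset that change was −0.55, and the groups again did not overlap. Gab2 minus Gab1 changed by 0.39. Tsc2 minus Tsc1 changed by −0.28 and Foxo3 minus Foxo1 by −0.20, although none of these 4 genes passed the test on its own. The other 3 of the 7 held a dim gene, and for Inppl1 minus Inpp5d and Pik3c2b minus Pik3c2a no change is given. Prkaa2 minus Prkaa1 was higher with Nedd4 siRNA by at least 0.62, taking Prkaa2 at the olfactory receptor level on the control siRNA arrays. In the other 9 pairs the groups overlapped. Pik3r2 minus Pik3r1 (−0.50) and Rictor minus Rptor (0.44) had changes of similar size, and in each of them control siRNA replicate 3 was the array that overlapped. Gsk3b minus Gsk3a changed by 0.08 and Pik3r3 minus Pik3r1 by −0.10.

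**Figure D3:**
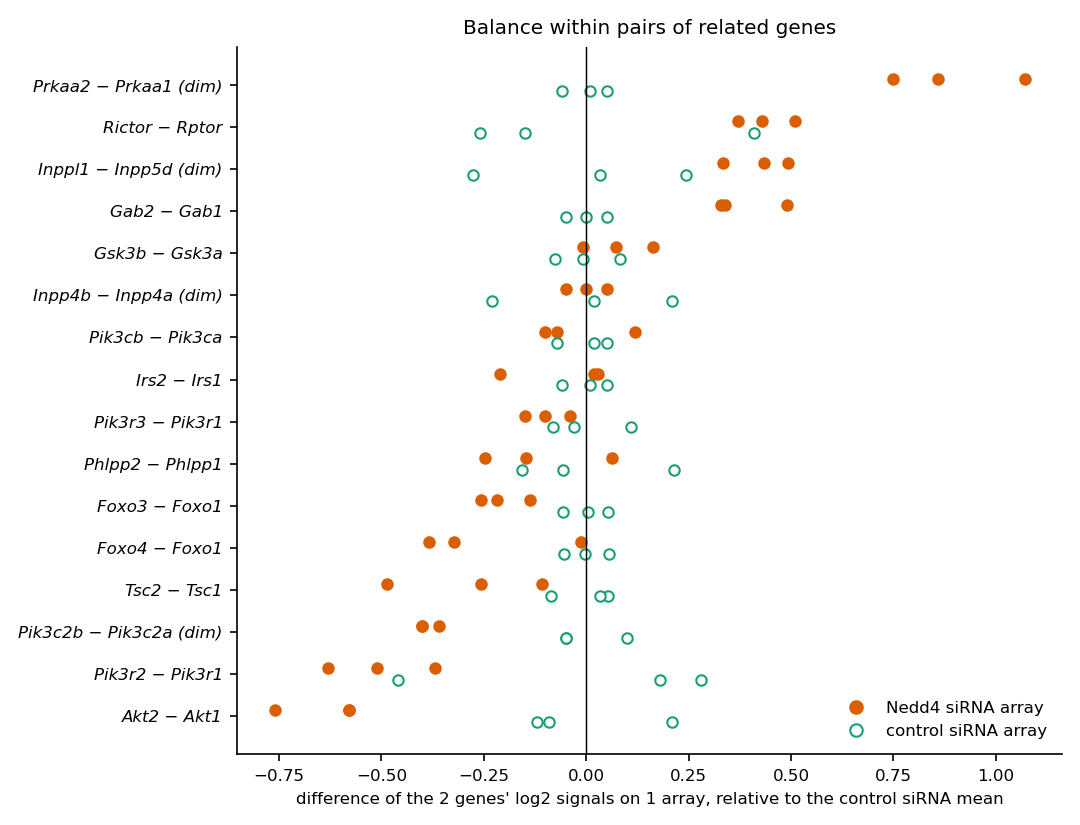
Difference of the log2 signals of 2 related genes on each array, relative to the mean of the control siRNA arrays, for 16 pairs (Nedd4 siRNA arrays filled orange, control siRNA arrays open green, 3 each). The groups do not overlap in 7 pairs, among them Akt2 minus Akt1 at the bottom (−0.64). The 4 pairs marked dim hold a gene below the olfactory receptor level in at least 1 group, so the distance between their groups, that of Prkaa2 minus Prkaa1 at the top included, cannot be ranked.

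Around this core, 132 of 136 other listed genes of the pathway were measured, in 9 lists that share some genes. Of these 27 rose and 20 fell, together 35.6%, to be read against the 18.7% of all genes given above. Of the 113 with a mean above the olfactory receptor level 40.7% passed, to be read against 31.2% of all genes above it. The receptors that feed PI3K moved in both directions, with 3 of 12 higher and 5 lower. Erbb3, the neuregulin receptor subunit that binds PI3K, fell by 1.14 (adjusted p = 2.93e-05), and Insr, the insulin receptor, fell by 0.97 (adjusted p = 4.36e-05) with both of its probesets lower. Pdgfra, a receptor for platelet-derived growth factor, rose by 0.81 (adjusted p = 4.98e-05). Erbb3 is also a marker on the neural crest list, and Pdgfra one on the smooth muscle and fibroblast list.

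Among other PI3K subunits and binding proteins 2 of 14 rose and 0 fell. These were Grb10, an adaptor that dampens insulin receptor signalling, and Pik3ip1, a membrane protein that inhibits PI3K, each with a difference of 0.63 (adjusted p = 0.000242 and 0.000366). Of the other inositol phosphatases 2 of 12 rose, Mtmr3 (0.42) and Inpp5f (0.38), and Ocrl fell (−0.48). Mtmr3 and Inpp5f were not called without Nedd4 siRNA replicate 1 (adjusted p = 0.0513 and 0.0737), nor Inpp5f without control siRNA replicate 1 (0.0533). Of the other AGC kinases and AKT modulators 4 of 12 rose and 0 fell, led by Hsp90aa1, a chaperone with AKT among its clients (0.66, with its 3 probesets between 0.60 and 0.67), Trib2, a pseudokinase (0.53), and Sgk1, a kinase related to AKT (0.41). In the list of other TSC, mTOR complex and assembly proteins 1 of 9 changed, Ruvbl2, an ATPase of complex assembly (−0.42), which was not called without Nedd4 siRNA replicate 1 (adjusted p = 0.0529).

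Among genes of amino acid sensing to mTORC1 5 of 27 rose and 3 fell. Fnip2, a partner of folliculin, rose (0.59), as did Sesn1, a sestrin (0.40), and Depdc5, a subunit of the GATOR1 complex that restrains mTORC1, fell (−0.38). The outputs of mTORC1 held the largest fall of these lists, that of Eif4ebp2, a repressor of cap-dependent translation (−1.23, adjusted p = 1.50e-05), while Ulk1, the kinase that starts autophagy, rose (0.90, adjusted p = 5.97e-05). In this list 3 of 16 rose and 5 fell. Eef2k was among the falls, at −0.62 in its brightest probeset (adjusted p = 0.000824). Its other probeset gave 0.29 (adjusted p = 0.0744), and with the mean of its probesets the call was lost (adjusted p = 0.273), so its value is uncertain. Eif4e, the cap-binding protein, fell by 0.72 in its brightest probeset (adjusted p = 0.000162), but its other 2 probesets gave −0.20 (adjusted p = 0.216) and 0.03 (adjusted p = 0.904), so the value is uncertain.

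Of the other AMPK pathway genes 1 of 12 rose and 4 fell. Strada, the pseudokinase that activates LKB1, fell (−1.17, adjusted p = 9.43e-06) and its paralogue Stradb rose (0.46, adjusted p = 0.00583), beside the rise of Stk11 described above. Camkk2, another kinase upstream of AMPK, fell (−0.47, adjusted p = 0.00829). Of 23 FOXO target genes 8 rose and 3 fell. Erbb3 and Insr, named among the receptors, were the falls with the smallest p, and Rictor, a member of the core, was among the rises. Pdk4, a kinase that inhibits pyruvate dehydrogenase, rose (0.69) with its control arrays all below the olfactory receptor level, at values of 6.23, 6.03 and 6.18 on the Nedd4 siRNA arrays against 5.55, 5.36 and 5.45 on the control siRNA arrays.

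**Figure D4:**
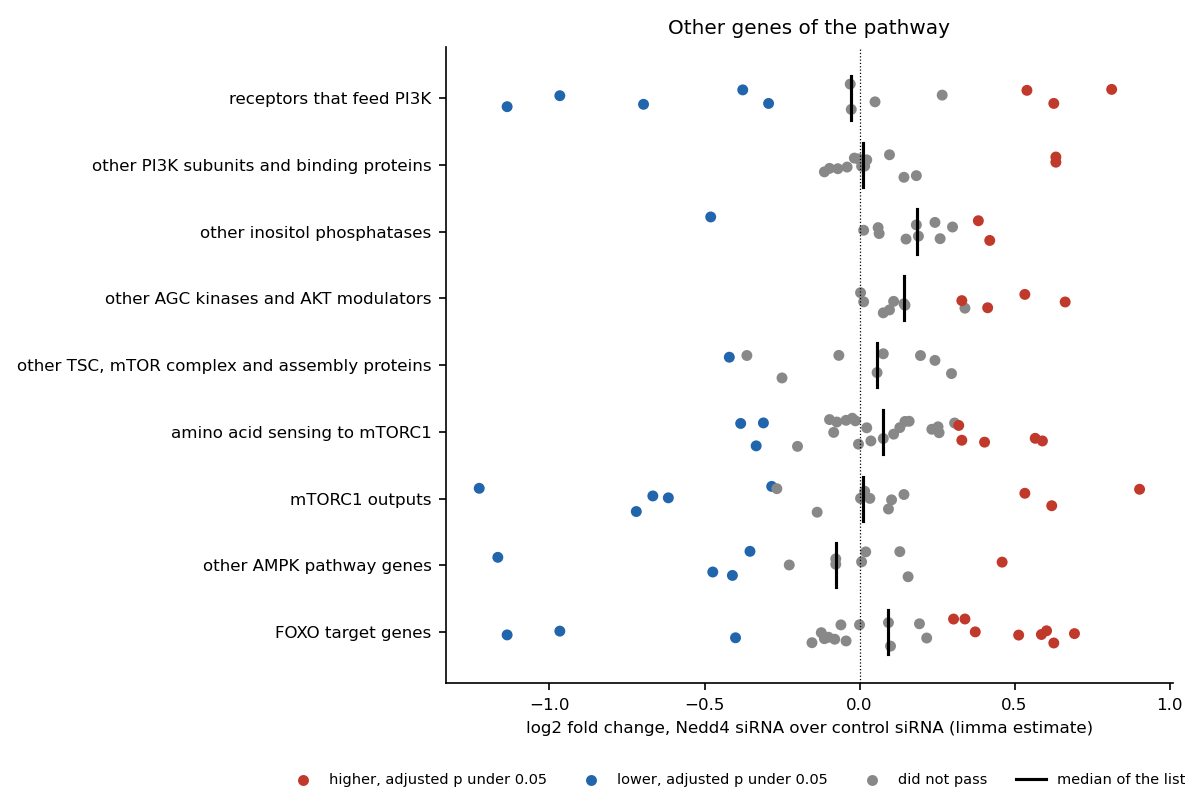
Log2 fold change (Nedd4 siRNA over control siRNA, x axis) of 134 genes around the core, 2 of which, Rictor and Irs2, are also core members, in 9 lists, with 1 point per gene and list and a black line at the median of each list. Genes past the test lie on both sides of 0 in 6 lists, the widest spread is among receptors and mTORC1 outputs, and the medians lie between −0.08 and 0.19.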

How the data were processed

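RNA of 3 Nedd4 siRNA and 3 control siRNA cultures of NCU10K cells was measured, 1 Affymetrix array each. The authors deposited log2 values, which they had made in Partek Genomics Suite (6.5, per the submitters' processing notes) by RMA background correction, correction for GC content and averaging of probes. They were used unchanged. The genome build of the array annotation is not given in the sources used here. That annotation puts 1 symbol on 21780 probesets, several on 1618 and none on 5042.

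The siRNAs were compared by lmFit and eBayes of limma 3.58.1 (R 4.3.3) without covariates. P-values were adjusted over all probesets by Benjamini-Hochberg, and the fit was tested on simulated data. The methods name an ANOVA with step-up adjustment, run here as the methods' t-test. With 3 arrays a group precision is limited, and probesets had a median residual SD of 0.117. The members and all gene lists were chosen with earlier results of these data known. Of members past the test, the 12 with the smallest p have array values, as do the 4 others with the largest difference. Up to 3 genes of each further list were named by p, and Twist1, Eef2k, Col1a2 and Acta2 after their values were seen. No promoter window of Pik3c3, Gab2, Rps6kb2, Deptor or Foxo4 was used. Sequences and figures were handled in Python 3.11.15 with pandas 2.3.3 and Matplotlib 3.10.9. The alternatives changed the test (ANOVA, trended and robust eBayes, array weights, a replicate block), the scaling (quantile, median), the probesets (without the dimmest 25% or 50%, single symbols, gene means), the threshold and the arrays, each left out in turn. The other Akt2 probeset and the restriction to genes above the olfactory receptor level were added after seeing the data.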

Additional observations from a re-analysis of the deposited data

How the results depend on the processing

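No gene that passed the test reversed its direction under any alternative, but another probeset was tried in this way for Akt2 only. Of the wider genes that passed, Eef2k and Eif4e each had another probeset with a difference above 0 (0.29 and 0.03), against a fall in the probeset used. Some genes near 0 that did not pass changed sign, such as Pik3r2 (0.01, and −0.215 without control siRNA replicate 3). Pik3r1 and Gab2 kept their calls in all 18 alternatives and Prkaa2 in all 17 that gave it a value. By the methods' t-test 9 pathway genes passed (8 of the 15 and Prkaa1), with 2 negative regulators, 1 AKT-inhibited target and 23 wider genes, against 9.05% of all genes. With an added log2 difference of at least 0.5 the counts were 5 in all, 4 positive regulators, 1 negative regulator, 0 targets and 24 wider genes (8.88% of all genes). At an adjusted p under 0.01 they were 2 negative regulators, 1 target and 31 wider genes (11.8% of all genes). Leaving out each array in turn gave 9 to 16 pathway genes, 6 to 9 positive regulators, 2 to 5 negative regulators, 1 to 2 targets and 30 to 43 wider genes. Pairs without overlap numbered 7 to 10. Leaving out an array cannot bring this number below the 7 of all arrays, so it does not measure stability. The low counts of 9, 6 and 30 came without Nedd4 siRNA replicate 1, where 12.1% of all genes passed. The low count of 2 negative regulators came without Nedd4 siRNA replicate 1 or 2 or control siRNA replicate 3, and that of 1 target without any of these or control siRNA replicate 1. Correlations of deviations were −0.01, 0.47 and −0.01 for same-numbered arrays and between −0.426 and 0.415 for arrays of different numbers. With 3 arrays a group these values cannot settle whether the replicate numbers pair the arrays. With the replicate block 16 pathway genes, 9 positive and 5 negative regulators, 2 targets and 50 wider genes passed (20.1% of all genes). Scalings moved the median of all probesets by under 0.1. A signal near the olfactory receptor level limits what can be seen for the 5 dim members and Prkaa2, and a p that misses the threshold with 3 arrays against 3 does not show that an mRNA was unchanged.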
